A study of Mus musculus with 2 samples.

Results

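The enzymes that build, sulfate and edit heparan sulfate and chondroitin sulfate were examined in total RNA from mouse limb at embryonic day 12.5. They were chosen by name as 42 genes of 7 steps, and each of the 42 was found once among the 43346 Ensembl genes of the gene tables. The study has 1 group of 2 biological replicates, both of strain B6NCrl and of mixed sex. Limbs of 88 embryos were pooled for replicate 1 and of 68 for replicate 2, and each library started from 10 ng of RNA. The labels name no treatment or mutant allele and give no second condition, and fore- and hindlimb are not told apart. The comparisons below are therefore between enzymes of the same tissue and between both libraries.

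Heparan sulfate and chondroitin sulfate are long sugar chains attached to proteoglycans at the cell surface and in the matrix. Both start from the same short linker on a serine of the core protein, and the next sugar added decides which chain follows. Sulfotransferases then decorate the chain, using an activated sulfate donor made in the cell. In the limb bud heparan sulfate is known to bind FGF, BMP, WNT and hedgehog ligands, and chondroitin sulfate is a main component of cartilage matrix.

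Levels are in TPM, a relative transcript abundance scaled for transcript length and library size by the authors, and means are given ± SD over the replicates (n = 2). The deposited estimated counts summed to 29810026 in replicate 1 and 29938721 in replicate 2. All 8 limb mesenchyme markers, among them Prrx1, Msx1 and Hoxd13, reached a TPM of 1 in both libraries. Of the markers of other tissues, all 4 ectoderm, all 3 endothelium and all 13 cartilage genes reached it too, as did 5 of 7 neuron, 2 of 4 liver and 2 of 4 mast cell genes. The defining mast cell genes Mcpt4 and Tpsb2 were listed at 0. No p-value is given for a level or a ratio of levels, since an exact sign-flip test over 2 libraries cannot go below p = 0.5. Levels in bulk tissue cannot tell apart fewer cells of a type from less RNA per cell.

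A TPM of 1 in both libraries was reached by 39 of the 42 enzymes, against 33.5% of all Ensembl genes. The exceptions were Ndst3, Ndst4 and Hs6st3. The median over the 42 enzymes was 17.3 TPM, against 18.3 TPM over the 14507 genes that reached 1 TPM. The 4 highest were Sulf2, Ugdh, Sulf1 and Papss1, which together held 43.8% of the enzymes' summed TPM in replicate 1 and 46.0% in replicate 2. Ordered by mean level, 14 of 41 neighbouring enzymes had ranges that did not overlap and 27 overlapped. From Hs6st2 down to Extl2 each neighbour overlapped the next, although genes farther apart in that stretch could be separate.

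**Figure D1:**
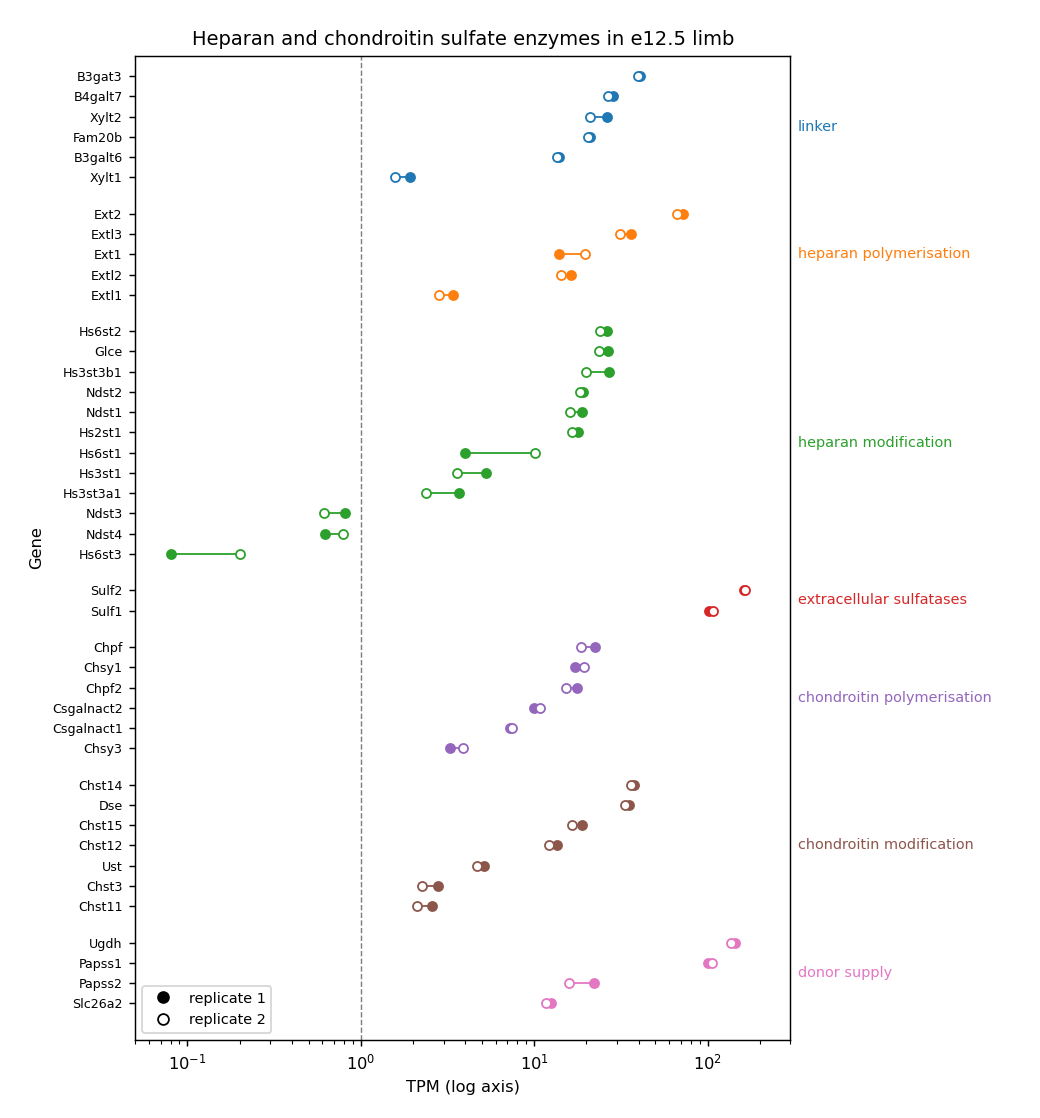
TPM of each of the 42 enzymes on a log axis, grouped by step, with replicate 1 as filled points and replicate 2 as open points; the dashed line marks 1 TPM. Ndst3, Ndst4 and Hs6st3 lie left of the line, Sulf2 and Ugdh lie farthest right, and Hs6st1 shows a wide gap between replicates.

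Before the values, sequences show where a pair of these genes shares coding bases and where it differs. Hs3st3a1 and Hs3st3b1, a pair of heparan sulfate 3-O-sulfotransferase genes, lie 513042 bp from each other on chromosome 11 in opposite orientation (Hs3st3b1 chr11:63885792-63922290, minus strand; Hs3st3a1 chr11:64435332-64522841, plus strand; mm10). Their coding sequences shared a run of 401 identical bases. The first part of this run is printed in capitals within Hs3st3a1, after the 20 bases before it in lower case (chr11:64520290-64520589, plus strand, 1 exon, GENCODE M21 transcript sequence). Over the 773 aligned columns of the best local alignment the coding sequences were 97.7% identical.
Hs3st3a1 shared run: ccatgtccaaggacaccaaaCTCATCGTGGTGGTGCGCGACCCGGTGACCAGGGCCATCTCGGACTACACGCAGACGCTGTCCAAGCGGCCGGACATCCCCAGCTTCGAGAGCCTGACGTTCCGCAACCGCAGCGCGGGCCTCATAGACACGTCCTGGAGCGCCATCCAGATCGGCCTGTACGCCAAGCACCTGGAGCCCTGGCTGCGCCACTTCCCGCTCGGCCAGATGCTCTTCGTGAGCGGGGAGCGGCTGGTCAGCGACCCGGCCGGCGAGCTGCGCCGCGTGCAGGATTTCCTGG
Toward the start of the coding sequence the genes differed, and the opening 60 coding bases of each are shown with the start codon in capitals (Hs3st3a1 chr11:64436067-64436126, plus strand; Hs3st3b1 chr11:63921828-63921887, minus strand).
Hs3st3a1 coding start: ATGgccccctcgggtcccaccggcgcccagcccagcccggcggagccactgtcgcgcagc
Hs3st3b1 coding start: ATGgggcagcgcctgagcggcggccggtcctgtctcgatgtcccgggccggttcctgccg
Of the 100-nt windows of Hs3st3b1, 6.28% occurred in a transcript of another gene, in each case Hs3st3a1. For Hs3st3a1 the share was 39.0%, of which most lay on exon sequence shared with the opposite-strand gene F930015N05Rik (1197 of 1499 windows). Whether counting used strand is not stated in the labels or headers, so the split among these genes is uncertain. In all, 34 of the 42 enzymes had no such shared window in their longest annotated transcript. Chpf2 had 39.6%, all with the opposite-strand gene Smarcd3.

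The linker is built by xylosyltransferases, galactosyltransferases, a glucuronyltransferase and a xylose kinase. All 6 of these genes reached 1 TPM, and their levels summed to 132.6 TPM in replicate 1 and 122.9 in replicate 2. B3gat3, which adds the glucuronic acid that completes the linker, was the highest at 40.9 and 39.9 TPM in replicates 1 and 2. B4galt7, which adds the first galactose, was at 28.5 and 26.6 TPM, and B3galt6, which adds the next one, at 13.8 and 13.5 TPM. The kinase gene Fam20b lay between them at 21.1 and 20.5 TPM. The enzymes that start the linker were the most unequal of this step. Xylt2 was at 26.3 and 20.9 TPM, while its paralog Xylt1 was at 1.91 and 1.58 TPM. The ranges did not overlap, and Xylt2 was 12.8-fold above Xylt1 (log2 ratio 3.68 ± 0.05). Xylt1 rested on 72 and 77 counts, and 41.4% and 72.7% of it fell on its protein-coding transcript in replicates 1 and 2, with the rest on transcripts that retain introns.

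Heparan chains are polymerised by a complex of the Ext1 and Ext2 proteins. Ext2 (chr2:93661028-93822568, minus strand) was the highest gene of the step, at 72.1 and 66.4 TPM in replicates 1 and 2. Ext1 (chr15:53064038-53346159, minus strand) was at 14.0 and 19.5 TPM. The ranges did not overlap, and Ext2 was 4.17-fold above Ext1 (log2 ratio 2.06 ± 0.42). Much of the TPM of Ext1 sat on short transcripts. A 1554-nt transcript annotated as subject to nonsense-mediated decay, held 40.4% and 43.1%, and an 871-nt transcript with a retained intron, 22.6% and 23.0%. The 7663-nt protein-coding transcript held 37.0% and 33.9% of the TPM but most of the counts, 734 of 933 in replicate 1 and 943 of 1239 in replicate 2. Counting only protein-coding transcripts, an alternative chosen after the data were seen, the log2 ratio of Ext2 over Ext1 was 3.51.

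The other genes of the step are the related Extl genes. Extl3, which adds the first N-acetylglucosamine and so commits the linker to heparan sulfate, was at 36.3 and 31.1 TPM in replicates 1 and 2. Extl2, whose protein can add N-acetylglucosamine to a phosphorylated linker and stop the chain, was at 16.4 and 14.4 TPM. Extl3 was 2.18-fold above Extl2 (log2 ratio 1.13 ± 0.03, and 2.24 without length scaling). Extl1 was the lowest at 3.39 and 2.83 TPM, and Extl2 was 4.82-fold above it. All 3 ranges were separate. Csgalnact1 encodes a transferase of the competing reaction, which commits the linker to chondroitin sulfate. Extl3 was 4.51-fold above Csgalnact1 (log2 ratio 2.17 ± 0.18, and 2.97 without length scaling). Csgalnact1 was the lower of its paralogs. Csgalnact2, at 9.95 and 10.8 TPM in replicates 1 and 2, lay nearer to Extl3 but still below it.

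Heparan chains are modified in the Golgi, first by N-deacetylase/N-sulfotransferases, then by an epimerase and O-sulfotransferases. Of the 12 genes of this step, 9 reached 1 TPM, and the sum was 150.5 TPM in replicate 1 and 135.9 in replicate 2. No single gene dominated. The highest, Hs6st2, held 17.5% and 17.7% of the sum.

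N-sulfation was represented by Ndst1 and Ndst2. Ndst1 was at 19.0 and 16.0 TPM in replicates 1 and 2, and Ndst2 at 19.0 and 18.2 TPM. The ranges overlapped, so no order was given (log2 ratio of Ndst1 over Ndst2 -0.10 ± 0.13). Without length scaling Ndst1 was above Ndst2 (log2 ratio 0.80), its transcript being 6070 nt long in the files against 3305 nt. Ndst3 and Ndst4 were low. Ndst3 was at 0.81 and 0.61 TPM (76 counts in replicate 1, 95% exact Poisson interval 59.9 to 95.1, and 62 in replicate 2, 47.5 to 79.5). Ndst4 was at 0.62 and 0.79 TPM (33 counts, 22.7 to 46.3, and 50, 37.1 to 65.9). Their order turned between replicates. The log2 ratio of Ndst3 over Ndst4 was 0.01 ± 0.47, and it had 1 sign in both libraries without length scaling (0.71), with the posterior mean TPM (0.30) and, in the opposite direction, with protein-coding transcripts only (-1.63). Intervals cover counting error only.

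The remaining modifying enzymes differed by family. Glce, the C5-epimerase that converts glucuronic to iduronic acid, was at 26.8 and 23.6 TPM in replicates 1 and 2. Hs2st1, the only heparan 2-O-sulfotransferase gene, was at 17.9 and 16.5 TPM. Glce was above Hs2st1, Ndst1 and Ndst2 with separate ranges. Among the 6-O-sulfotransferases, Hs6st2 was at 26.3 and 24.1 TPM, Hs6st1 at 4.01 and 10.1 TPM and Hs6st3 at 0.08 and 0.20 TPM. The 3 ranges were separate, although the log2 ratio of Hs6st1 over Hs6st2 was -2.68 in replicate 1 and -1.24 in replicate 2. Hs6st3 rested on 2 and 5 counts (95% exact Poisson intervals 0.242 to 7.22 and 1.62 to 11.7). Its level is near the limit of 3 counts that a count of 0 allows, and it was not tested between the libraries.

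Among the 3-O-sulfotransferases, Hs3st3b1 was at 27.0 and 19.8 TPM in replicates 1 and 2. Hs3st3a1 was at 3.67 and 2.39 TPM, and Hs3st1, whose product makes the antithrombin-binding site of heparan sulfate, at 5.27 and 3.58 TPM. Hs3st3b1 lay above both with separate ranges. Hs3st3b1 was 7.59-fold above Hs3st3a1 (log2 ratio 2.92 ± 0.11). The level of Hs3st3a1 carries the uncertainty of sequence shared with F930015N05Rik and, over fewer windows, with Hs3st3b1. Hs3st1 over Hs3st3b1 had a log2 ratio of -2.39 ± 0.07, and of -4.00 without length scaling. All 3 were lower in replicate 2, as described with the libraries below. Of the 4 other genes of this family, Hs3st6 was the highest at 3.19 and 2.32 TPM, followed by Hs3st5 at 0.75 and 1.21 TPM, and Hs3st4 was the lowest at 0.30 and 0.39 TPM.

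Sulf1 and Sulf2 encode sulfatases that act outside the cell, removing 6-O-sulfates from finished heparan chains. They were among the highest of all the enzymes. Sulf1 (chr1:12692277-12861192, plus strand) was at 101.3 and 107.1 TPM in replicates 1 and 2, and Sulf2 (chr2:166073089-166155663, minus strand) at 162.8 and 164.6 TPM. The ranges did not overlap (log2 ratio of Sulf1 over Sulf2 -0.65 ± 0.05). Together they made up 22.7% and 24.3% of the summed TPM of the 42 enzymes. Each was spread over several protein-coding transcripts. A transcript of 5598 nt held 53.2% and 43.7% of Sulf1, and one of 2682 nt 26.3% and 26.7%. A transcript of 3927 nt held 51.4% and 54.0% of Sulf2, and one of 4580 nt 30.1% and 23.4%.

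**Figure D2:**
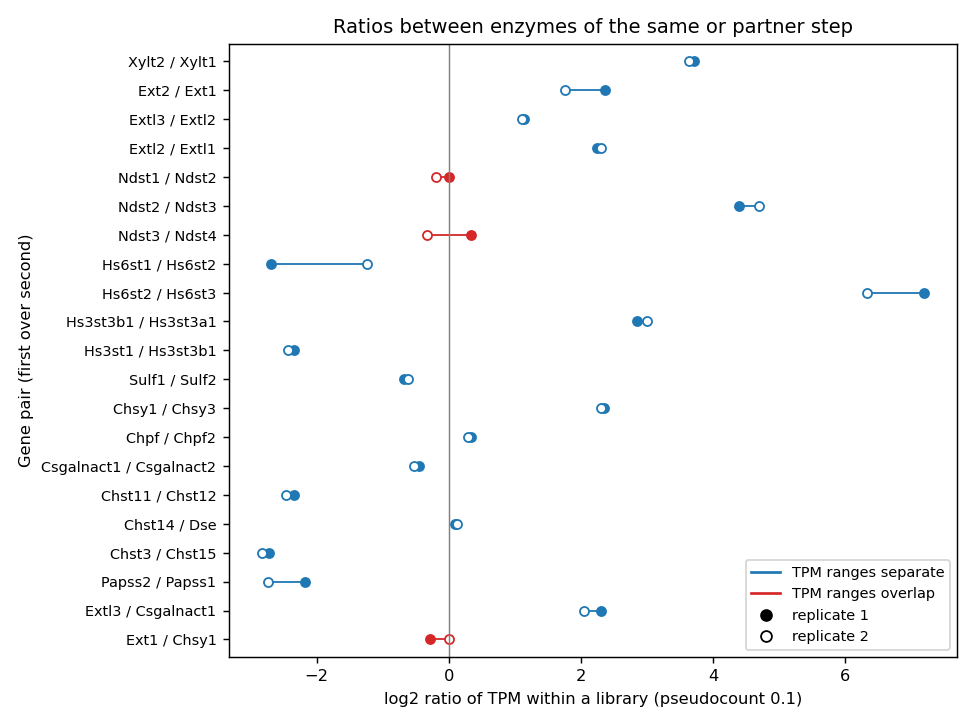
Log2 ratio of TPM within each library (pseudocount 0.1) for 21 pairs of enzymes of the same or a partner step, first gene over second, with replicate 1 filled and replicate 2 open. In 18 pairs (blue) the TPM ranges of the genes were separate; in Ndst1 / Ndst2, Ndst3 / Ndst4 and Ext1 / Chsy1 (red) they overlapped.

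Chondroitin chains are started and extended by N-acetylgalactosaminyltransferases, synthases and polymerising factors. All 6 genes reached 1 TPM, with sums of 77.5 TPM in replicate 1 and 75.4 in replicate 2. Chpf, a polymerising factor, was at 22.3 and 18.7 TPM. Its paralog Chpf2 was at 17.6 and 15.2 TPM, so Chpf was 1.24-fold higher (log2 ratio 0.32 ± 0.03). That order turned without length scaling (-0.26), and the ranges overlapped with protein-coding transcripts only (0.15). The level of Chpf2 also carries the uncertainty of sequence shared with the opposite-strand gene Smarcd3, which was at 63.1 and 62.7 TPM. The synthase gene Chsy1 was at 17.1 and 19.4 TPM and Chsy3 at 3.28 and 3.86 TPM. Chsy1 was 5.00-fold above Chsy3 (log2 ratio 2.32 ± 0.03). Csgalnact1 was at 7.28 and 7.46 TPM and Csgalnact2 at 9.95 and 10.8 TPM. The difference was small but larger than the spread (log2 ratio of Csgalnact1 over Csgalnact2 -0.48 ± 0.05). Ext1 and Chsy1, polymerases of the competing chains, overlapped (log2 ratio of Ext1 over Chsy1 -0.14 ± 0.21). Ext1 was below Chsy1 without length scaling (-0.37) and with protein-coding transcripts only (-1.62).

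All 7 genes that sulfate or epimerise chondroitin reached 1 TPM, with sums of 115.6 TPM in replicate 1 and 107.2 in replicate 2. The highest were Chst14 and Dse, genes of dermatan sulfate, the epimerised form of the chain. Chst14, the dermatan 4-O-sulfotransferase, was at 37.5 and 36.2 TPM, and the epimerase gene Dse at 35.2 and 33.3 TPM. Chst14 was above Dse by a log2 ratio of 0.11 ± 0.02 per unit of length, and below it without length scaling (-0.95). Among the chondroitin 4-O-sulfotransferases, Chst11 was at 2.58 and 2.11 TPM and Chst12 at 13.6 and 12.1 TPM. Chst11, a gene known for its role in growth-plate cartilage, was thus the lower of the pair (log2 ratio of Chst11 over Chst12 -2.41 ± 0.08, and -1.15 without length scaling). Among the 6-O-sulfotransferases, Chst3 was at 2.77 and 2.25 TPM and Chst15, which acts on chains already 4-O-sulfated, at 18.8 and 16.5 TPM. The log2 ratio of Chst3 over Chst15 was -2.77 ± 0.07. Ust, the uronyl 2-O-sulfotransferase gene, was at 5.12 and 4.66 TPM. Of 3 other genes of this step, the epimerase gene Dsel was at 13.7 and 16.3 TPM, the 6-O-sulfotransferase gene Chst7 at 1.37 and 1.94 TPM, and Chst13 had 0.03 TPM in replicate 1 and was listed at 0 in replicate 2.

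Both arms were measured in each library. The 17 genes that polymerise and modify heparan sulfate inside the cell summed to 292.6 TPM in replicate 1 and 270.1 in replicate 2. The 13 chondroitin genes summed to 193.1 and 182.6 TPM. The heparan sum was 1.50 ± 0.03 times the chondroitin sum, with more genes in it. RNA levels of enzymes do not measure the amount of either chain.

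Sulfation needs sulfate uptake and an activated donor, and building the chains needs sugar nucleotides. Ugdh (chr5:65413221-65435949, minus strand), which makes UDP-glucuronic acid for both chains, was at 144.3 and 136.0 TPM in replicates 1 and 2. It alone held 51.6% and 50.3% of the sum of the 4 supply genes. The 2 genes for synthases of the sulfate donor PAPS differed. Papss2 (chr19:32595790-32667187, plus strand), whose loss impairs skeletal growth in mice, was at 22.1 and 15.9 TPM. Papss1 (chr3:131564768-131643671, plus strand) was at 100.5 and 106.6 TPM. The ranges were far apart, and the log2 ratio of Papss2 over Papss1 was -2.46 ± 0.39. The sulfate transporter gene Slc26a2 was at 12.5 and 11.6 TPM. Its TPM was divided almost evenly over transcripts of 1101, 2802 and 7814 nt, which held 35.7% and 37.5%, 34.8% and 35.9%, and 28.4% and 26.5%. Most of its counts fell on the 7814-nt transcript, 511 of 825 in replicate 1 and 448 of 745 in replicate 2. Among 11 other donor and transporter genes 10 reached 1 TPM in both libraries. Ugp2, which makes UDP-glucose, was the highest at 77.9 and 75.6 TPM, then Uap1, which makes UDP-N-acetylglucosamine, at 55.8 and 58.2 TPM. The sulfate transporter gene Slc26a1 was the lowest at 1.40 and 0.91 TPM. All 15 genes of breakdown were above 1 TPM, led by the lysosomal genes Hexa (46.9 and 45.0 TPM) and Gusb (36.9 and 36.1 TPM), with Ids lowest at 2.48 and 2.38 TPM.

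Of the enzymes with a mean of at least 5 TPM and several annotated transcripts, 21 of 21 had the same transcript with the highest percent in both libraries. The same held for 92.5% of the 7996 such genes in the series, so the enzymes lay near the background. The shares themselves could move, as for the main transcript of Chpf, which held 84.5% in replicate 1 and 70.5% in replicate 2. Protein-coding transcripts held more than 90% of the level in both libraries for 34 of the 42 enzymes. Ndst3 and Ext1 had the lowest shares. For Ndst3 most of its few counts fell on a transcript annotated as subject to nonsense-mediated decay, which held 89.4% and 59.9%. For Ugdh the transcript outside the coding share has no type in the newer annotation that supplied the types, so its share of 70.3% and 67.0% is a lower limit. A second protein-coding transcript held at least 20% in both libraries for Fam20b, Extl2, Hs6st2, Chpf2 and Chst3, beside the genes described above. Of these 5, Extl2 was nearest to an even split, with 57.2% and 51.8% on a transcript of 2840 nt and 36.6% and 47.0% on one of 2999 nt.

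**Figure D3:**
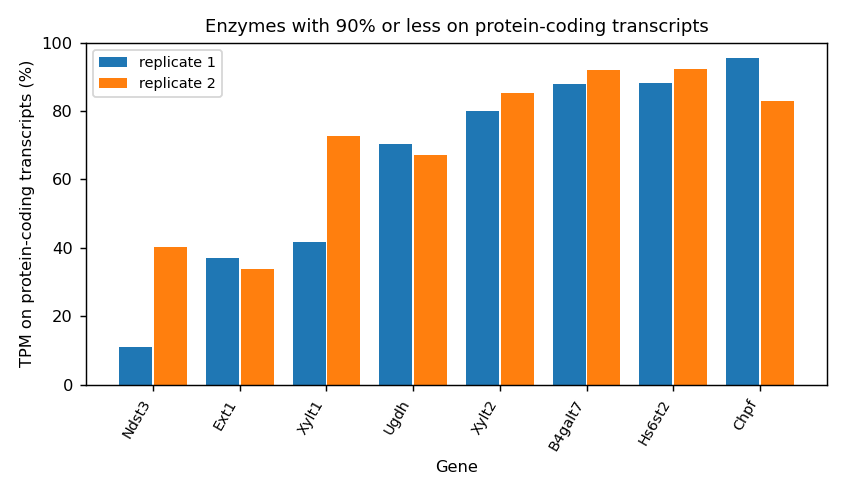
Percent of TPM on transcripts annotated as protein-coding in replicates 1 and 2, for the 8 enzymes with a share of 90% or less in at least 1 library. Ext1 is the gene of more than 10 TPM with the lowest share, 37.0% and 33.9%.

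Between the replicate libraries, 1 enzyme stood apart. Hs6st1 (chr1:36068400-36106446, plus strand) had 270 counts in replicate 1 and 690 in replicate 2, and 4.01 and 10.1 TPM. It was 2.52-fold lower in replicate 1 (log2 ratio of replicate 1 over replicate 2 -1.33; p = 3.00e-39 by a two-sided exact binomial test, after Benjamini-Hochberg adjustment over 18580 genes). It was the only one of 41 tested enzymes that passed both limits, an adjusted p below 0.05 and a difference of 2-fold or more. Over all tested genes 1.67% were called, and 0.931% were called as higher in replicate 2, so 1 call in 41 lies near the background. The test covers counting error and compares 2 libraries, not conditions. With edgeR's exact test and a trended spread from the same libraries, Hs6st1 had an adjusted p of 1.67e-08, and was the only enzyme among the 0.732% of genes called. With a gene-wise spread from the same libraries, edgeR's exact test called 0 genes, with 173 genes and 3 enzymes at an unadjusted p under 0.05. That spread takes in each gene's own difference between these libraries, so the lack of calls cannot decide whether a gene differed.

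The change of Hs6st1 lay on its coding transcript, at 3.83 and 10.0 TPM in replicates 1 and 2. An opposite-strand gene, Gm37335, shares 447 bp of exon with Hs6st1 and was at 6.87 and 9.33 TPM (log2 ratio -0.41). The longest transcript of Hs6st1 held a 100-nt window of 89% GC in its 5' UTR. In the longest transcript of Hs6st2 the richest window was at 77% GC and lay in the coding sequence. Among the 41 tested enzymes 7 held a window of at least 85% GC. Their log2 ratios ran from -1.33 for Hs6st1 and -0.39 for Ext1 to 0.26 for Ndst1. Of all 1349 tested genes with such a window, 1.48% were called as higher in replicate 2 and 0.519% as higher in replicate 1. Of the 1819 tested genes whose richest window was below 60% GC, 1.98% were called as higher in replicate 2 and 1.37% as higher in replicate 1. In the range from 60% to below 70% GC these shares were 0.823% and 0.776%. From 70% to below 80% they were 0.675% and 0.613%, and from 80% to below 85% they were 0.541% and 0.583%. The part of GC content or of the antisense gene in the difference was not tested. Within the coding sequence the richest windows of Hs6st1 and of its paralog Hs6st2 were alike in GC, at 74% and 77%, and are shown to compare the gene that differed with the one that did not pass the test (adjusted p = 0.235, exact binomial test; Hs6st1 chr1:36068711-36068810, plus strand; Hs6st2 chrX:51681263-51681362, minus strand).
Hs6st1 coding window: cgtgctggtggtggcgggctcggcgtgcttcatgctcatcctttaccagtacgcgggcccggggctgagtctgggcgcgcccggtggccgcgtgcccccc
Hs6st2 coding window: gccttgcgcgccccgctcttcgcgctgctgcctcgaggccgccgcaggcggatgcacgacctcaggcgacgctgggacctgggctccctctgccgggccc

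**Figure D4:**
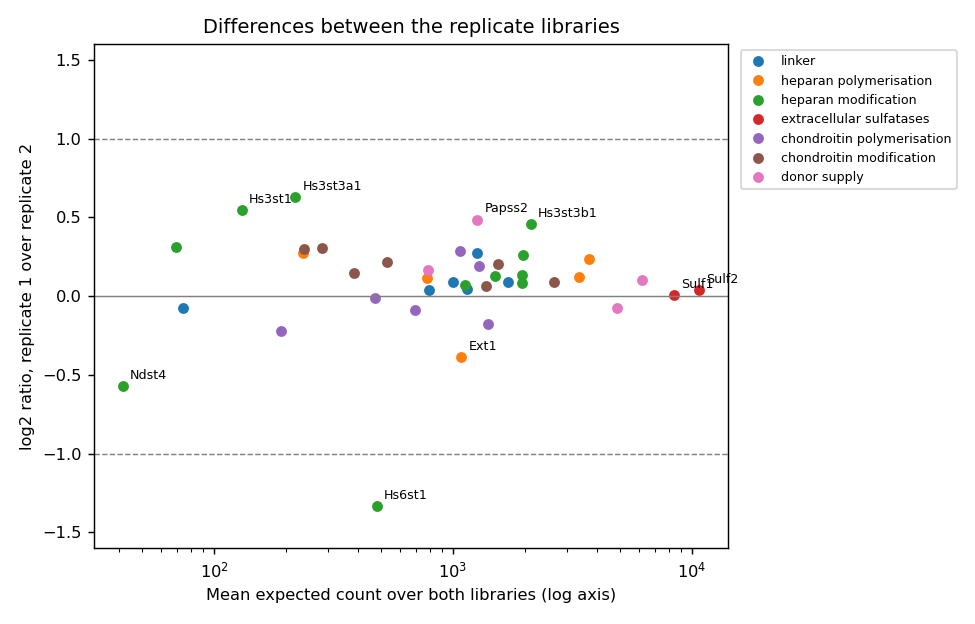
Log2 ratio of scaled counts, replicate 1 over replicate 2, against the mean count on a log axis for the 41 tested enzymes, coloured by step; dashed lines mark a 2-fold difference. Hs6st1 at -1.33 is the only point beyond a dashed line, and Sulf1 and Sulf2 lie at 0.01 and 0.04.

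The other 40 tested enzymes differed by less than 2-fold. With no fold limit, 16 of the 41 tested enzymes passed the adjusted p of the exact binomial test, 13 higher in replicate 1 and 3 higher in replicate 2. Over all tested genes 16.0% passed, 9.05% higher in replicate 1 and 6.94% in replicate 2. The enzymes were more deeply counted than most genes, with a median of 2244 counts against 882. Among genes with at least 1000 counts 23.9% passed, and 13 of 29 such enzymes did. The median log2 ratio over the enzymes was 0.11, against 0.01 over all tested genes, and 32 of 41 enzymes were above 0, against 52.4% of all tested genes. The sign of Sulf1 changed with the scaling, and those of Sulf2 and Xylt1 differed on the TPM scale.

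Papss2 and the 3-O-sulfotransferase genes among the 42 had the highest ratios of those that passed. Hs3st3a1 had a log2 ratio of 0.63 (adjusted p = 0.000162, exact binomial test), Hs3st1 0.54 (0.0232) and Hs3st3b1 0.46 (1.49e-22). Papss2 was at 0.48 (5.53e-15), with 1465 counts in replicate 1 and 1062 in replicate 2. The polymerising genes Chpf (0.29), Extl3 (0.23), Chpf2 (0.19) and Ext2 (0.12) were also higher in replicate 1, as were Xylt2 (0.27), Ndst1 (0.26), Chst15 (0.20), Glce (0.14) and Ugdh (0.10). Higher in replicate 2, beside Hs6st1, were Ext1 (-0.39; 2.36e-08) and Chsy1 (-0.17; 0.0134). None of these 15 passed edgeR's exact test with the trended spread, where Hs3st3b1 had an adjusted p of 0.0517 and Papss2 of 0.103.

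Markers of cell types moved between the same libraries. Of 13 cartilage genes, 11 were higher in replicate 1. Over the 13 the median log2 ratio was 0.30 and the sums were 1287 and 1132 TPM in replicates 1 and 2. Of the 11, 4 (Acan, Matn1, Comp and Epyc) were called at 2-fold or more, against 1.67% of all tested genes. The Sox genes of the list did not share the shift. Sox9 was at 0.02, and Sox5 (-0.08) and Sox6 (-0.20) were higher in replicate 2. Of 7 neuron genes, 6 were higher in replicate 2, 3 of them called at 2-fold or more (median -0.71, sums of 51.6 and 69.7 TPM). These 3 were Nefl, Prph (5 and 126 counts in replicates 1 and 2) and Elavl3 (1 and 16 counts), the last 2 near the floor in replicate 1. Gap43, the highest of the list, was higher in replicate 1 (log2 ratio 0.11). All 4 ectoderm genes (median 0.14; sums of 287 and 265 TPM) and all 3 endothelium genes (0.15; 105 and 98.7 TPM) were higher in replicate 1. The liver genes summed to 7.56 and 5.08 TPM and the mast cell genes to 14.2 and 12.1 TPM, with Cpa3 called as higher in replicate 1. Most of the mast cell sum was Kit (10.8 and 10.4 TPM), so the sum is not a level of mast cells. Of the 8 limb genes 6 were higher in replicate 2 (median -0.08; 1054 and 1127 TPM). Tbx5, a forelimb gene, was higher in replicate 1 (35.2 and 24.1 TPM, log2 ratio 0.56) and Pitx1, a hindlimb gene, in replicate 2 (142.4 and 172.9 TPM, -0.29), named after their values were seen. The part of cell makeup or of limb type in the shifts of Hs6st1, Papss2, the 3-O-sulfotransferase genes and the other enzymes was not tested. Among the related genes outside the 42, 1 of 11 donor genes (Slc26a1, 0.83) and 2 of 15 breakdown genes passed the adjusted p. Over all tested genes 16.0% passed, so these counts were not above the background. None of the 4 other heparan sulfotransferase genes or the 2 tested chondroitin and dermatan genes passed. All of these but Dsel had at most 77 counts in each library, so few could have passed.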

How the data were processed

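Total RNA of 2 limb libraries was analysed from deposited gene and transcript tables. Per the file headers, the deposited expected counts are estimated counts that need not be whole, the deposited TPM values are scaled per length over all rows, and the deposited percent values give each transcript's share of its gene. The deposited text files name mm10 as the build and GENCODE M4 as the annotation. No aligner, quantifier or strand setting is named in the labels or headers read here. Names, types and coordinates came from GENCODE M21 on the same assembly, and sequences from its transcripts. All 42 identifiers matched. The effective length was the length minus 99 nt.

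Library totals were 29810026 and 29938721 counts. Pairs of enzymes were compared as log2(TPM + 0.1) ratios within a library and called ordered when both ratios had 1 sign and the TPM ranges did not overlap. Libraries were compared on rounded counts by an exact conditional binomial test (two-sided, Benjamini-Hochberg, at least 10 counts summed, fold computed with 0.5 added), scaled by Ensembl gene totals; the quasi-likelihood test of edgeR has no residual freedom with 1 library a side and was replaced. On counts simulated with Poisson noise only, 100 of 100 genes changed 4-fold and 37 of 100 changed 2-fold were called with the fold limit. There were 2 calls among 18397 unchanged genes. The changed genes were drawn from those with at least 100 expected counts. The simulated noise was counting noise alone, so these calls do not give the error rate on the real libraries. The libraries were treated as separate samples because the labels name them as biological replicates; they differed by more than counting noise (chi-square per gene 6.61 over 16488 genes). All 42 enzymes are named; of other lists the 2 highest and the lowest. Members, lists and pairs were chosen with earlier results of these data known. Tools were R 4.3.3, edgeR 4.0.16, DESeq2 1.42.0 (size factors only), Python 3.11.15, numpy 2.4.6, scipy 1.17.1, pandas 2.3.3, Biopython 1.88 and matplotlib 3.10.9.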

Additional observations from a re-analysis of the deposited data

How the results depend on the processing

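No paired analysis was possible because there is 1 group. The count of enzymes above 1 TPM (39) ran from 30 with a minimum of 5 TPM to 41 with 0.5 TPM, and was 39 in each library alone. Of the 21 pairs, 18 to 21 were in a fixed order under the other scalings, pseudocounts and transcript choices run; a single library cannot overlap itself, so the pairs could not be checked by leaving out a library. Of the single-pair values under these alternatives, 58 moved by less than the spread between replicates and 45 by more without a change of call to the opposite sign. Without length scaling, 2 ordered pairs reversed, Chpf over Chpf2 (-0.26) and Chst14 over Dse (-0.95). The heparan over chondroitin ratio (1.50) was 1.71 without length scaling, 1.40 without the highest gene of each arm and 1.43 with protein-coding transcripts only (chosen after seeing the data), and 1.48 to 1.52 in single libraries. The cause was not tested.

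Hs6st1 was called under each scaling and count minimum run and by edgeR's exact test with a trended spread. It was not called with a gene-wise spread, which called 0 genes (173 at an unadjusted p under 0.05). The gene-wise spread takes in each gene's own difference, so that setting cannot decide the call. With no fold limit 16 enzymes were called. Over all genes, 311 were called, 74 with at least 100 counts (fewer genes tested), 2972 with no fold limit and 79 with edgeR's exact test and the same fold limit. The median log2 ratio of the enzymes ran from 0.10 to 0.12. Depth limits Hs6st3, Ndst3, Ndst4 and Xylt1 (72 and 77 counts in replicates 1 and 2).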
